A study of Homo sapiens with 27 samples.

Results

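Interferon-stimulated genes are the genes that cells switch on when interferon binds its receptors. The 48 described here were picked by symbol for their known place in that response, with no measured value in the rule. Earlier results of these data were known when they were chosen, so the list gets no test of its own. Of the 48, 46 have a row among the 14008 genes of the count table. MX2 and CMPK2 were not analysed here. The levels of the 46 were followed in teloHAEC, a human aortic endothelial line immortalised with telomerase, in 27 messenger RNA 3' end libraries. All cells were electroporated with Cas9 ribonucleoprotein, 150000 cells per replicate, and collected 2 days later. Set A held 4 libraries in which guides flanked an enhancer of SMAD3, a gene for a nuclear mediator of TGF-beta signals, 4 HPRT-targeted libraries and 4 negative control libraries. Set B held 4 libraries in which guides flanked an enhancer of LDAH, which encodes a lipid droplet associated hydrolase, 4 HPRT-targeted libraries and 7 negative control libraries. HPRT-targeted cells received a guide that cuts the HPRT1 gene and negative control cells a non-targeting guide, so the controls carried Cas9 and the electroporation too. No group was left without electroporation, and the labels name no interferon treatment. The edited cells were used as a pool, and the share of edited alleles was not analysed here. The labels do not say whether replicates came from separate cultures, so the p-values measure only how far these samples spread, which may be technical. In bulk RNA, fewer cells of a kind and less RNA per cell cannot be told apart.

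Type I interferons bind the receptor IFNAR1 and IFNAR2, whose kinases JAK1 and TYK2 activate STAT2. Held to DNA by IRF9, STAT2 acts at the interferon-stimulated response element in promoters. Foreign or displaced nucleic acid, read by the RNA sensors RIG-I and MDA5 or by cGAS, leads to the making of interferon, and endothelial cells both make and answer it. In these cells the interferon genes IFNB1, IFNA1, IFNG, IFNK and IFNL1 to IFNL3 have no row in the table and were not analysed here.

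For 4 of the members described below the promoter is shown, since it holds the core of that element. They are 4 of the members of smallest p in the comparisons of a deletion with its negative control. The windows run from 250 bases before to 50 bases after the transcription start, 5' to 3' on the gene's strand, from RefSeq on GRCh38.p14. The capitals mark GAAA, NN, GAAA or its reverse complement TTTC, NN, TTTC, where NN is any pair of bases, the core of the response element, searched on both strands with overlaps allowed. IFI6 lies at chr1:27672143-27672442 on the minus strand, IFIT5 at chr10:89414318-89414617, ISG15 at chr1:1013247-1013546 and ISG20 at chr15:88638766-88639065, these 3 on the plus strand.
IFI6: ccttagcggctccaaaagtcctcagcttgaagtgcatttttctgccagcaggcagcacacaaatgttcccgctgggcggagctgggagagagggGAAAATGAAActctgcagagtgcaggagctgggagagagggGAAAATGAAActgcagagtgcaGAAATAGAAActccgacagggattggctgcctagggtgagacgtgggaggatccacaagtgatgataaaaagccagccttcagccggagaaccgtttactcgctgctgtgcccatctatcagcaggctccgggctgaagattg
IFIT5: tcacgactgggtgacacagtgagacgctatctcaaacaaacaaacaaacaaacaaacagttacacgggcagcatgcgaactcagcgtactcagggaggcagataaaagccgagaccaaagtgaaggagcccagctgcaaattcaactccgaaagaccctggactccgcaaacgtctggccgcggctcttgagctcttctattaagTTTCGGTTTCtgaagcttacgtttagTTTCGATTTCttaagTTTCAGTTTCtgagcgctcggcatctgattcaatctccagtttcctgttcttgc
ISG15: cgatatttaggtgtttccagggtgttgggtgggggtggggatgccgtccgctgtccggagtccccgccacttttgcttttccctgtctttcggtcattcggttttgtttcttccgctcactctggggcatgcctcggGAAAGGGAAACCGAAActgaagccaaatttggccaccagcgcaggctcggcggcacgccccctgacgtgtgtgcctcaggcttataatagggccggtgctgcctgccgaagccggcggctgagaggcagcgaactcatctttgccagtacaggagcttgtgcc
ISG20: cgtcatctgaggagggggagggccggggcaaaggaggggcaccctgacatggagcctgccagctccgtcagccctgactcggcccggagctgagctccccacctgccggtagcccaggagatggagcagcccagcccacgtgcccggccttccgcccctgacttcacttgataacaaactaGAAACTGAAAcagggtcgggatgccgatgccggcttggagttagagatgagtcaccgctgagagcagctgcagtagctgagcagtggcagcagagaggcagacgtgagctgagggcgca

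IFI6 held 3 matches, beginning 156, 115 and 93 bases before the start, and IFIT5 held 3, beginning 45, 19 and 4 bases before it. In ISG15 a pair of matches that begin 113 and 107 bases before the start overlap, and ISG20 had 1, 69 bases before it. Windows were found for 37 of the 48 genes, and 23 of these, 62.2%, held the motif, against 1255 of all 35116 promoter windows, 3.57%. The 37 genes had 51 windows, and a gene counted if any of its windows held the motif. The share over all promoters is per window, so the units differ. Of the 7 members that ranked among the 4 of smallest p in a comparison of a deletion with its negative control, 5 had a window and these 5 held the motif. IRF9, described below as well, had a window with 0 matches. A match is a description of these letters and no measure of binding, and its absence says only that the letters are not in that window.

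Each library carried 3.43 to 7.75 M counts (M for mega), and levels are given as CPM, the counts of a gene per M counts of its library after TMM scaling. A count of 0 allows up to 3 counts, or 0.387 to 0.875 CPM. All 13 endothelial markers have a row, from VWF at group means of 1.76 to 5.44 CPM to ROBO4 at 313 to 452 CPM. Of the markers of other cells, 3 of 9 blood, 0 of 6 epithelial and 1 of 8 mesenchymal genes have one. The targeted genes were lower on average where they were targeted. SMAD3 stood at 75.6 to 111 CPM with its enhancer targeted, against 120.4 to 142 CPM in the negative control. LDAH stood at 2.66 to 10.6 CPM with its enhancer targeted, against 7.76 to 18.2 CPM. HPRT1 stood at 28.9 to 43.2 CPM when targeted in set A, against 35.9 to 54.4 CPM, and at 24.9 to 54.5 CPM when targeted in set B, against 35.8 to 93.4 CPM. The log2 fold change was -0.44 ± 0.14 (SE) for SMAD3, with an adjusted p of 0.702, and -0.76 ± 0.40 (SE) for LDAH, with an adjusted p of 1.00. Adjusted p-values here and below come from the quasi-likelihood F-test of edgeR after Benjamini-Hochberg correction over all genes tested, named in short as edgeR QL with BH. In 7 libraries expression across all genes stood apart from the rest of their set, by a median Spearman correlation more than 3 scaled median absolute deviations below the set's median. In set A they are replicate 4 of SMAD3 deletion and replicate 3 of the HPRT-targeted cells. In set B they are replicate 4 of LDAH deletion, replicates 2 and 4 of the HPRT-targeted cells and replicates 6 and 7 of the negative control. The share of counts from ribosomal protein genes in them was 15.3% to 16.4% for set A, against 11.7% to 14.5% elsewhere, and 14.9% to 17.3% for set B, against 9.35% to 11.3% elsewhere. The counts of members, and the named members that rest on these libraries, are also given without them.

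Across the 27 libraries the means of the 46 genes ran from 0.103 to 654 CPM, as the plot of levels by gene shows. Since a QuantSeq library reads about 1 tag per transcript at its 3' end, CPM are compared between genes without a correction for length. The membrane proteins that block the entry of enveloped viruses were highest. IFITM2 averaged 654 CPM, with a range of 279 to 871 CPM, and IFITM3 averaged 474 CPM, with a range of 183 to 608 CPM. They were followed by IFI27, a mitochondrial and nuclear membrane protein, at a mean of 286 CPM, by SP100, a scaffold of nuclear bodies, at 152 CPM, and by ADAR, which edits adenosines in double-stranded RNA, at 118 CPM. IFITM2 stood above 98.4% of all genes in the table. The lowest were RSAD2, which encodes the antiviral enzyme viperin, at 0.103 CPM, and IFITM1 at 0.174 CPM, each with a count of 0 in 21 of 27 libraries. OASL, HERC5 and IFIT2 followed at 0.591, 0.676 and 0.967 CPM. IFITM1 overlaps IFITM2 on the same strand and the IFITM genes are near copies, so how their reads were divided is uncertain.

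**Figure D1:**
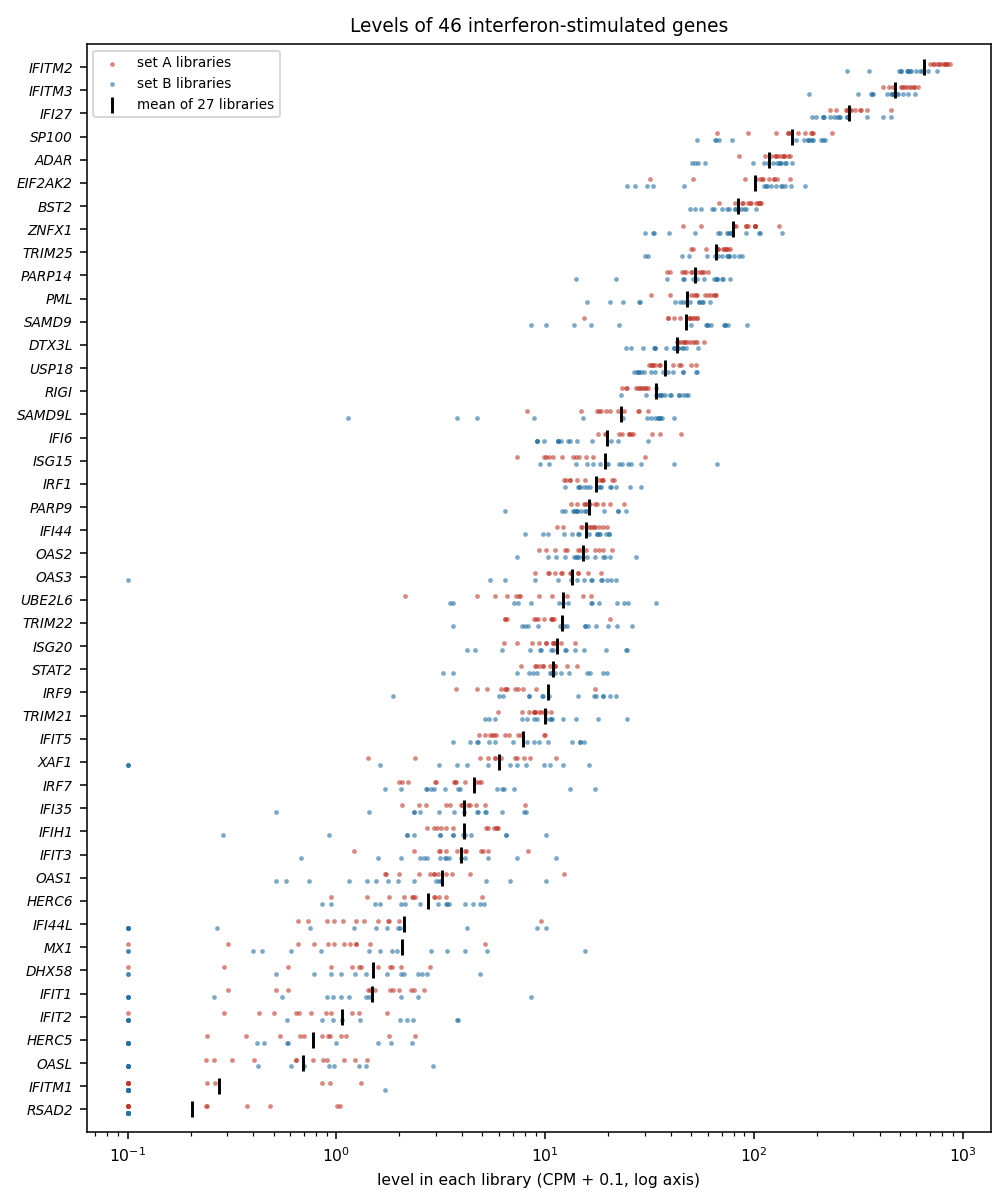
Levels of the 46 interferon-stimulated genes with a row, ordered by mean, as CPM + 0.1 on a log axis. Points are libraries of set A (upper, red) and set B (lower, blue) and bars the mean of 27 libraries; points at the left edge are counts of 0, present in each of the 9 lowest genes.

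Among the sensors of viral RNA, RIGI, which encodes RIG-I, averaged 33.8 CPM, IFIH1, which encodes MDA5, 3.97 CPM and DHX58, their regulator LGP2, 1.40 CPM. The factors that carry the signal were all present. STAT2 averaged 10.8 CPM, IRF9, its DNA-binding partner, 10.2 CPM, IRF1 17.4 CPM and IRF7, which drives interferon genes, 4.48 CPM. Of the IFIT family, which binds foreign RNA ends, IFIT5 averaged 7.71 CPM, IFIT3 3.83 CPM and IFIT1 1.38 CPM. The oligoadenylate synthetases OAS2 and OAS3 averaged 15.03 and 13.3 CPM and OAS1 3.11 CPM, and MX1, a GTPase that blocks viral replication, 1.95 CPM. EIF2AK2, the kinase PKR that halts translation on double-stranded RNA, averaged 101 CPM. The ISG15 system, which attaches the ubiquitin-like ISG15 to proteins, had the modifier itself at 19.3 CPM, its conjugating enzyme UBE2L6 at 12.1 CPM, its protease USP18, which also dampens the receptor, at 37.5 CPM and HERC6, a relative of its ligase HERC5, at 2.64 CPM. Several other members stood above those of the ISG15 system. BST2, or tetherin, averaged 83.6 CPM, ZNFX1, an RNA helicase, 79.4 CPM, TRIM25, the ligase that acts on RIG-I, 65.6 CPM, and PML, the core of nuclear bodies, 47.5 CPM. PARP14, PARP9 and its partner DTX3L averaged 52.2, 16.2 and 42.9 CPM, and SAMD9 and SAMD9L 47.5 and 23.0 CPM. The other ligases TRIM21 and TRIM22 averaged 9.83 and 11.99 CPM, the exonuclease ISG20 11.3 CPM and XAF1, which promotes apoptosis, 5.94 CPM. IFI6, IFI44, IFI35 and IFI44L averaged 19.6, 15.6, 3.99 and 2.02 CPM. PARP9 and DTX3L overlap on opposite strands, as do TRIM22 and TRIM5, ZNFX1 and its neighbours DDX27 and ZFAS1, and IFIT1, IFIT2 and IFIT3 with LIPA. The sources do not state whether counting used strand, so the reads of such genes cannot be told apart with certainty.

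Upstream of the members, 33 of 45 pathway genes have a row, IFNAR1, IFNAR2 and the kinases JAK1 and TYK2 among them. IFNLR1, the receptor of interferon lambda, was not analysed here. The lowest and highest group means of IFNAR1 were 68.9 and 77.3 CPM, those of JAK1 358 and 627 CPM and those of TYK2 31.9 and 59.1 CPM. IFNE, the interferon of epithelia, was the ligand with a row, at group means of 0 to 0.454 CPM, with counts of 0 in all HPRT-targeted and LDAH deletion libraries. The sensor CGAS stood at group means of 3.72 to 6.30 CPM and its partner STING1 at 25.8 to 43.3 CPM.

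The negative controls of the sets were compared as a description, since set and handling cannot be told apart. Of the 42 members kept in a fit of all libraries, IFITM2, IFI6 and ZNFX1 were higher in every set A control than in every set B control, and IRF9 was lower. Such separation occurred in 6.11% of 12055 genes upward and 5.83% downward. IFI6 averaged 25.5 ± 5.33 CPM (SD, n = 4) in the controls of set A and 10.4 ± 1.57 CPM (SD, n = 7) in those of set B. IRF9 averaged 6.22 ± 1.27 CPM in set A and 12.8 ± 4.62 CPM in set B. All comparisons below were made within sets or with the set as a covariate, since each set had its own controls.

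With the SMAD3 enhancer deleted, the interferon-stimulated genes had a median change near 0 relative to the negative control. Of 40 members tested, 25 had a higher and 15 a lower mean, with a median log2 fold change of 0.05, against 50.3% of 11467 genes higher and a median of 0.00 for all genes. By edgeR QL with BH no member was called, nor was any of all genes, 0%, and DESeq2 and limma voom called no member either. Without the libraries that stand apart, 27 of 40 were higher, with a median of 0.06, and none was called, against 0.00864% of 11574 genes. At an unadjusted p under 0.05, 4 members were higher and 0 lower, against 4.05% and 2.74% of all genes. These 4 were IFIT5, ISG15, TRIM22 and IFI44L. This count was 0 higher and 1 lower, PML, without the libraries that stand apart, against 5.29% and 5.35% of all genes.

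IFIT5, which binds RNA with exposed 5' ends and whose promoter is printed above, had 9.93, 5.69, 7.60 and 9.78 CPM in SMAD3 deletion libraries, against 5.44, 6.63, 5.06 and 4.74 CPM in the negative control. All but the second deletion library lay above every control library. Its fold change on the log2 scale was 0.58 ± 0.23 (SE), with an adjusted p of 0.709 by edgeR QL with BH, and it was 0.49 without the libraries that stand apart.

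ISG15 had 14.5, 10.02, 13.4 and 30.1 CPM in SMAD3 deletion libraries, against 9.82, 7.24, 10.8 and 11.9 CPM in the negative control. The highest value belonged to deletion replicate 4, which stands apart, and the groups overlapped. Its log2 fold change of 0.75 ± 0.30 (SE) became 0.35 without that library, and the adjusted p by edgeR QL with BH was 0.730.

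TRIM22, a nuclear ubiquitin ligase that restricts viruses, had 10.6, 9.75, 8.96 and 20.3 CPM in SMAD3 deletion libraries, against 8.76, 6.43, 6.33 and 9.10 CPM in the negative control. The groups overlapped at the third deletion library. Its log2 fold change of 0.67 ± 0.28 (SE) became 0.35 without deletion replicate 4. IFI44L, a gene of the response whose protein is poorly understood, had 0.551, 1.49, 1.90 and 9.40 CPM in SMAD3 deletion libraries, against 1.66, 0.804, 0.633 and 1.14 CPM in the negative control. Deletion replicate 4 was far above every other library of both groups, and the groups overlapped. Its log2 fold change of 1.54 ± 0.71 (SE) rested on the same library, without which it was 0.29. For both, edgeR QL with BH gave an adjusted p of 0.730.

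One member separated the groups. PML had 50.04, 52.9, 51.5 and 32.2 CPM in SMAD3 deletion libraries, against 58.3, 61.9, 64.4 and 53.5 CPM in the negative control, so that every deletion library lay lower, as in 2.35% of all genes. On the log2 scale the fold change was -0.36 ± 0.18 (SE), with an adjusted p of 0.734 by edgeR QL with BH, and -0.22 without the libraries that stand apart.

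Other genes of the response were counted in the same way. Of 32 pathway genes tested 19 had a higher and 13 a lower mean, their median log2 fold change being 0.04, and of 23 other interferon-responsive genes 18 and 5, with a median of 0.14. Of the pathway genes 0 were higher and 1 lower at an unadjusted p under 0.05, and 3 other interferon-responsive genes were higher and 1 lower. In 5 of these 23, SHFL, DDX60L, LAP3, NMI and PARP12, every deletion library lay above every control library, against 3.37% of all genes and 0 of 40 members. No gene of either list passed edgeR QL with BH. SHFL, which blocks ribosomal frameshifting of viruses, averaged 14.1 ± 1.55 CPM in SMAD3 deletion and 8.42 ± 1.38 CPM in negative control libraries (SD, n = 4 each), with a log2 fold change of 0.72 ± 0.21 (SE). DDX60L, a helicase, was at 0.27 ± 0.10 (SE). TREX1, the exonuclease that clears cytosolic DNA, averaged 12.1 ± 2.16 CPM in SMAD3 deletion and 17.3 ± 2.11 CPM in negative control libraries (SD, n = 4 each), a log2 fold change of -0.53 ± 0.19 (SE). CNP, a phosphodiesterase, was at -0.29 ± 0.12 (SE), and every deletion library of both TREX1 and CNP lay below every control library. SHFL was at 0.66 and TREX1 at -0.58 without the libraries that stand apart.

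**Figure D2:**
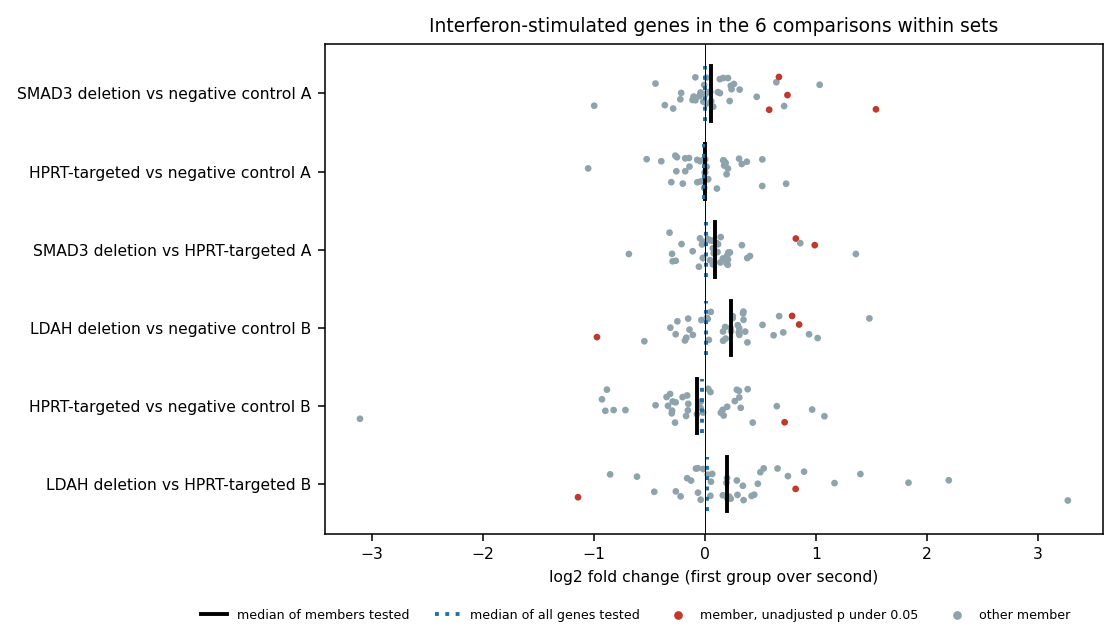
Log2 fold changes of the tested members in the 6 comparisons within sets, first group over second; each point is a gene, with the medians of members (black) and of all genes (dotted). The member medians lie at 0.24 for LDAH deletion against negative control and 0.20 for LDAH deletion against HPRT-targeted cells, and between -0.07 and 0.09 in the other 4.

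In HPRT-targeted cells of set A the members also had a median change near 0. This comparison and the next share libraries with the one above, so their values are no independent support for each other. Of 40 members tested 21 had a higher and 19 a lower mean, with a median log2 fold change of 0.00, against 49% of 11467 genes higher. No member passed edgeR QL with BH, with 0% of all genes called, and none reached an unadjusted p under 0.05, against 1.12% of all genes in each direction. DESeq2 and limma voom called no member. Without HPRT-targeted replicate 3 and the other libraries that stand apart, 26 of 40 were higher, with a median of 0.05, against 49.2% of 11574 genes. None was called then either, and 4 were higher and 0 lower at an unadjusted p under 0.05, against 2.91% and 3.02% of all genes. These were ZNFX1 at 0.36 ± 0.11 (SE), ISG15 at 0.52 ± 0.22 (SE), OAS2 at 0.49 ± 0.22 (SE) and IFIT3 at 0.86 ± 0.39 (SE). With all libraries, IFIT3, which stabilises IFIT1 on RNA, had 8.13, 5.23, 4.06 and 3.69 CPM in HPRT-targeted libraries, against 3.02, 4.02, 1.11 and 4.93 CPM in the negative control. The groups overlapped, and the log2 fold change was 0.73 ± 0.40 (SE).

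USP18 had 49.8, 32.4, 52.6 and 41.1 CPM in HPRT-targeted libraries, against 44.7, 33.4, 32.1 and 32.6 CPM in the negative control, a log2 fold change of 0.31 ± 0.17 (SE). ISG15 had 16.8, 10.3, 13.9 and 15.6 CPM in HPRT-targeted libraries of set A, against the control values given above, a log2 fold change of 0.52 ± 0.31 (SE). For OAS2 the HPRT-targeted libraries had 20.8, 18.9, 12.7 and 14.3 CPM, against 18.0, 10.1, 12.3 and 11 CPM in the negative control, a log2 fold change of 0.38 ± 0.24 (SE). All 4 genes had overlapping groups and an adjusted p of 0.988 by edgeR QL with BH. Every HPRT-targeted library had more IFI27 than every control library, at 292 to 327 CPM against 247 to 289 CPM, as in 2.02% of all genes, a log2 fold change of 0.20 ± 0.17 (SE). Every one had less DHX58, at 0.487 to 1.18 CPM against 1.21 to 2.72 CPM, as in 2.24%, a log2 fold change of -1.05 ± 0.68 (SE). Among other interferon-responsive genes, LGALS9, which encodes a galectin, had an unadjusted p of 0.0258 in the edgeR test, averaging 2.46 ± 0.724 CPM in HPRT-targeted and 1.03 ± 0.628 CPM in negative control libraries (SD, n = 4 each). It was the 1 gene of the 23 tested in that list with an unadjusted p under 0.05. No gene of that list, nor any pathway gene, passed edgeR QL with BH.

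Set against HPRT-targeted cells, which were cut as well, SMAD3 deletion gave 27 of 40 members a higher and 13 a lower mean, with a median log2 fold change of 0.09, against 52.6% of all genes. By edgeR QL with BH no member was called, with 0% of all genes called. DESeq2 and limma voom called none, and 2 members were higher and 0 lower at an unadjusted p under 0.05, against 2.96% and 2.88% of all genes. For 0 members did the groups separate, against 1.96% of all genes upward and 1.39% downward. Leaving out the libraries that stand apart, 23 were higher and 17 lower, with a median of 0.04, against 51.3% of 11574 genes higher, and none was called, against 0.475%. Then 0 were higher and 2 lower at an unadjusted p under 0.05, PML at -0.32 ± 0.11 (SE) and OAS2 at -0.49 ± 0.23 (SE), against 6.73% and 7.62% of all genes. With all libraries, HERC6 had 2.21, 3.25, 2.99 and 4.89 CPM in SMAD3 deletion libraries, against 1.68, 0.844, 1.30 and 2.82 CPM in HPRT-targeted libraries. All but the first deletion library lay above every HPRT-targeted library. Its log2 fold change was 0.99 ± 0.37 (SE), with an adjusted p of 0.748 by edgeR QL with BH, and 0.67 without the libraries that stand apart.

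IRF9 had 8.96, 6.36, 7.33 and 17.3 CPM in SMAD3 deletion libraries, against 3.65, 7.09, 5.19 and 6.30 CPM in HPRT-targeted libraries. Only the second deletion library fell within the HPRT-targeted range. The log2 fold change was 0.82 ± 0.32 (SE), with an adjusted p of 0.774 by edgeR QL with BH, and 0.45 without deletion replicate 4. For IFI44L the HPRT-targeted libraries had 1.26, 1.69, 0.974 and 0.869 CPM, and the log2 fold change of SMAD3 deletion over them was 1.36 ± 0.70 (SE), or 0.11 without deletion replicate 4. For IFIT5 they had 5.33, 5.57, 7.30 and 6.30 CPM, and the log2 fold change was 0.41 ± 0.22 (SE). In both genes the groups overlapped, and the adjusted p-values were 0.854 and 0.874 by edgeR QL with BH. Outside the members, LAP3, an aminopeptidase, was at 0.43 ± 0.14 (SE) and CNP at -0.34 ± 0.12 (SE), each with no overlap between the groups. Of 23 other interferon-responsive genes 2 lay wholly above and 1 wholly below, against 1.96% and 1.39% of all genes. None of them, nor any pathway gene, passed edgeR QL with BH.

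With the LDAH enhancer deleted, more members had a higher than a lower mean relative to the negative control. Of 41 members tested 30 were higher and 11 lower, with a median log2 fold change of 0.24, against 51.7% of 11769 genes higher and a median of 0.01 for all genes. Without the libraries that stand apart 23 were higher and 18 lower, with a median of 0.08, against 49.9% of 12153 genes higher. No member passed edgeR QL with BH in the comparison of all libraries, with 0% of all genes called, and DESeq2 and limma voom called none. At an unadjusted p under 0.05, 2 members were higher and 1 lower, against 1.28% and 3.33% of all genes. This count was 2 higher and 4 lower without the libraries that stand apart, against 4.25% and 8.54%.

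IFI6, a mitochondrial protein that opposes apoptosis and restricts flaviviruses, had 13.03, 11.4, 16.6 and 31.02 CPM in LDAH deletion libraries. Its 7 negative control libraries ran from 9.02 over a median of 9.74 to 12.8 CPM. All but the second deletion library lay above every control library, and the highest, replicate 4, stands apart. Its fold change on the log2 scale was 0.79 ± 0.29 (SE), with an adjusted p of 0.957 by edgeR QL with BH. It was 0.38 without that library.

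ISG20, which degrades single-stranded RNA, ran the other way. It had 10.8, 8.34, 4.52 and 4.14 CPM in LDAH deletion libraries, against a range of 6.11 to 24.7 CPM with a median of 12.6 CPM in the negative control. The log2 fold change of -0.97 ± 0.40 (SE) had an adjusted p of 1.00 by edgeR QL with BH, and was -0.75 without the libraries that stand apart. Its counts in the 4 deletion libraries were 62, 52, 27 and 14.

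ISG15 had 19.8, 16.9, 22.4 and 66.8 CPM in LDAH deletion libraries, against a range of 9.32 to 25.8 CPM with a median of 18.2 CPM in the negative control. Replicate 4 of the deletion alone lay outside the control range. The log2 fold change of 0.85 ± 0.39 (SE) became 0.17 without that library, and the adjusted p by edgeR QL with BH was 1.00. IFITM2 had 623, 599.9, 751 and 685 CPM in LDAH deletion libraries, against a range of 357 to 558 CPM with a median of 542 CPM in the negative control. Every deletion library lay above every control library, which held for 0.365% of all genes. The log2 fold change of 0.38 ± 0.19 (SE) had an adjusted p of 1.00 by edgeR QL with BH, and was 0.27 without the libraries that stand apart.

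Without the libraries that stand apart, 1 member was called in this comparison, against 1.74% of 12153 genes. ZNFX1 had 105, 107 and 136 CPM in the 3 remaining LDAH deletion libraries, and 67.2 to 77.3 CPM in the 5 remaining negative control libraries. On the log2 scale the fold change was 0.63 ± 0.14 (SE), with an adjusted p of 0.0148 by edgeR QL with BH. Deletion replicate 4 had 52.3 CPM, against 39.1 and 30.1 CPM in the control libraries that stand apart, and with all libraries the fold change was 0.67 ± 0.33 (SE), with an adjusted p of 1.00 in the same test. The antisense genes DDX27 and ZFAS1 overlap ZNFX1, and their part in these counts was not tested. In the same comparison IRF9 was at -1.38 ± 0.41 (SE) and BST2 at -0.46 ± 0.15 (SE), with adjusted p-values of 0.0903 and 0.135 by edgeR QL with BH, and TRIM22 was at -0.90 ± 0.35 (SE). IRF9 had 5.91, 1.76 and 6.20 CPM in these deletion libraries but 21.9 CPM in replicate 4, against 8.31 to 20.3 CPM in all 7 negative control libraries.

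Among pathway genes 16 of 32 had a higher mean in LDAH deletion, their median log2 fold change being 0.01, and among 24 other interferon-responsive genes 17 did, with a median of 0.13. No gene of either list passed edgeR QL with BH. SOCS1, which shuts down JAK kinases, averaged 0.374 ± 0.280 CPM in LDAH deletion (SD, n = 4) and 2.48 ± 1.24 CPM in negative control libraries (SD, n = 7). Every deletion library lay below every control library, as in 0.739% of all genes, but its counts were 0 to 4 in the deletion. TICAM1, the adaptor of the RNA receptor TLR3, averaged 2.20 ± 0.951 CPM in LDAH deletion (SD, n = 4) and 5.74 ± 2.23 CPM in negative control libraries (SD, n = 7), a log2 fold change of -1.38 ± 0.56 (SE). PLSCR1, a membrane protein that amplifies the response, was at -0.97 ± 0.37 (SE) and STAT3, a factor shared with other cytokines, at 0.38 ± 0.16 (SE). Of the 13 endothelial markers 10 had a higher mean in LDAH deletion, with EGFL7 at 0.78 ± 0.21 (SE), and their summed level was 1369 to 2345 CPM in LDAH deletion libraries, against 1155 to 2430 CPM in the negative control. ACTA2, the mesenchymal marker with a row, was at 0.61 ± 0.28 (SE), with 29.5 to 45.2 CPM against 14.3 to 34.7 CPM. The 3 blood markers summed to 8.27 to 14.7 CPM in LDAH deletion libraries and 3.86 to 14.9 CPM in the negative control. The part of these markers in the members' values was not tested.

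HPRT-targeted cells of set B had 17 members with a higher and 24 with a lower mean than the negative control, with a median log2 fold change of -0.07, against 46.9% of 11769 genes higher and a median of -0.02. The balance turned without the libraries that stand apart, with 27 members higher and 14 lower and a median of 0.06, against 48.6% of 12153 genes higher. There were then 0 higher and 1 lower at an unadjusted p under 0.05, IFI44L, against 1.03% and 1.85% of all genes. The comparisons of set B share libraries too. With all libraries no member was called by edgeR QL with BH, with 0% of all genes called, and DESeq2 and limma voom called none. At an unadjusted p under 0.05, 1 member was higher and 0 lower, against 0.935% and 0.816% of all genes, and for 0 members did the groups separate, against 0.102% upward and 0.204% downward. The 1 was IFI6, with 20.6, 14.1, 11.4 and 22.3 CPM in HPRT-targeted libraries, against a range of 9.02 to 12.8 CPM in the negative control. All but the third HPRT-targeted library lay above every control library. The log2 fold change was 0.72 ± 0.29 (SE), with an adjusted p of 0.999 by edgeR QL with BH, and 0.66 without the libraries that stand apart.

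ISG15 had 23.1, 28.7, 15.7 and 41.3 CPM in HPRT-targeted libraries of set B, against the control range of 9.32 to 25.8 CPM, a log2 fold change of 0.65 ± 0.39 (SE). The 2 highest values came from replicates 2 and 4, which stand apart. IRF7 had 5.78, 3.70, 2.73 and 17.1 CPM in HPRT-targeted libraries, against a range of 1.61 to 6.97 CPM with a median of 3.22 CPM in the negative control. Its log2 fold change of 0.97 ± 0.59 (SE) rested on replicate 4, without which it was 0.11. IFI44L had 0, 6, 0 and 0 counts in HPRT-targeted libraries, against 0 to 42 counts in the negative control, too few for a fold change. For these 3 genes the adjusted p by edgeR QL with BH was 0.999. GBP1, an interferon-induced GTPase outside the members, was at -0.47 ± 0.20 (SE), and PNPT1, a mitochondrial exonuclease, at 0.45 ± 0.21 (SE). Neither they nor any other gene of the 2 lists outside the members passed edgeR QL with BH.

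**Figure D3:**
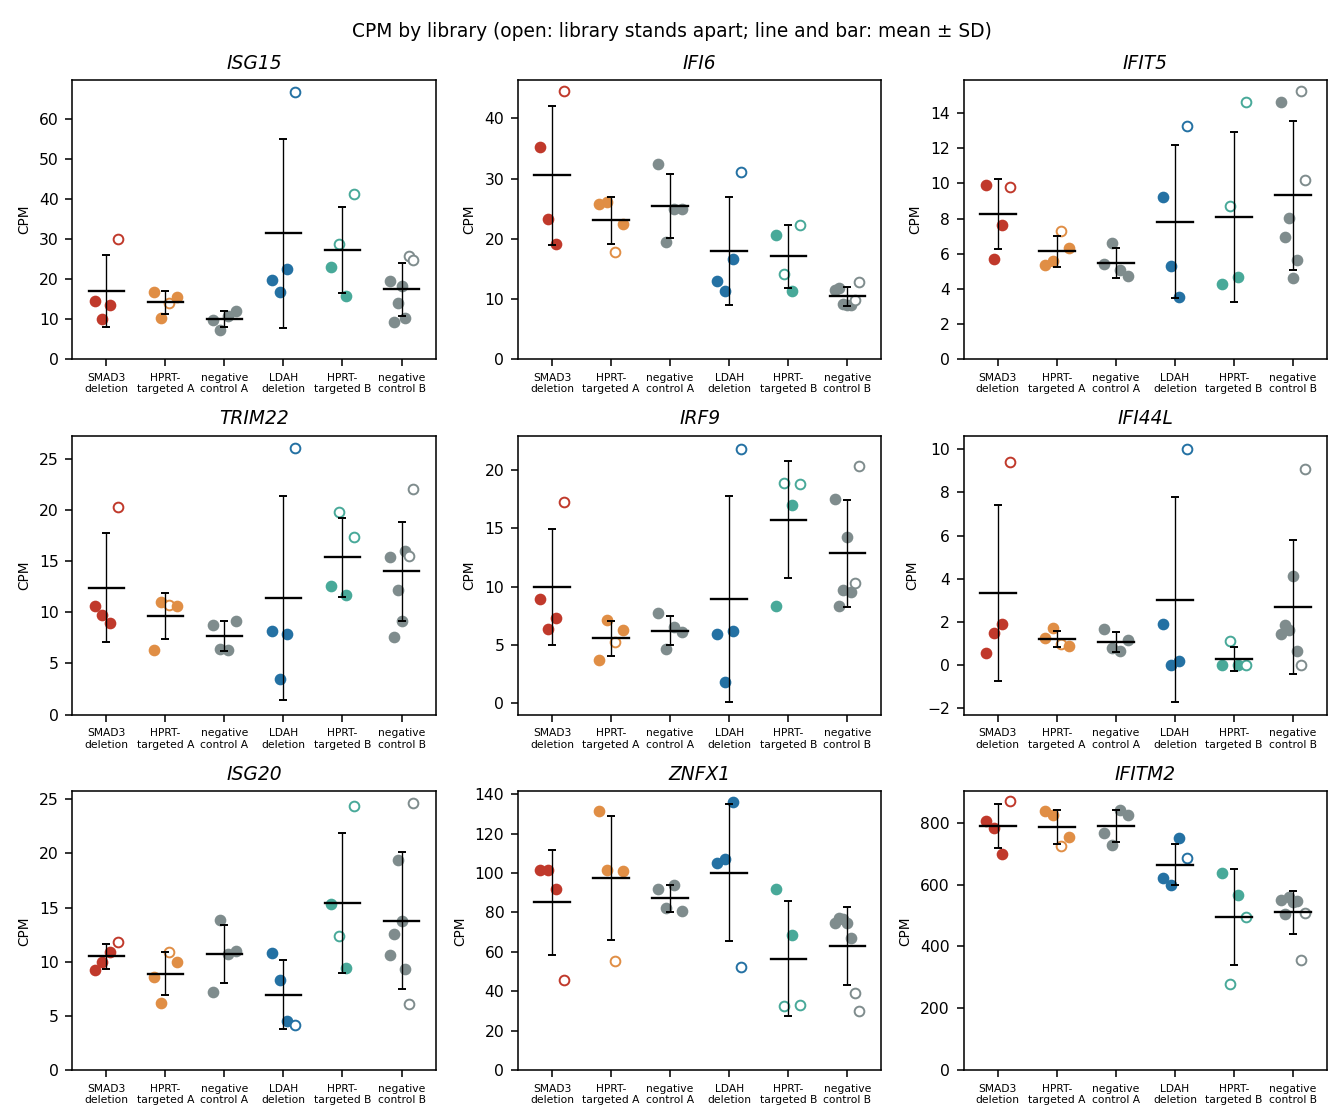
CPM of 9 members in every library of the 6 groups, with the group mean and SD; open symbols are the 7 libraries that stand apart. In ISG15, TRIM22, IRF9 and IFI44L, SMAD3 deletion replicate 4 and LDAH deletion replicate 4 are the highest of their group, while ZNFX1 is lowest there.

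Against HPRT-targeted cells, LDAH deletion gave 28 of 41 members a higher and 13 a lower mean, with a median log2 fold change of 0.20, against 51.7% of all genes. Without the libraries that stand apart it was 20 and 21, with a median of -0.00 and none called, against 50.6% higher and 0.634% called of 12153 genes. Of these, 1 was higher and 3 were lower at an unadjusted p under 0.05, against 3.72% and 6.65% of all genes. With all libraries no member passed edgeR QL with BH, with 0% of all genes called, and DESeq2 and limma voom called none. At an unadjusted p under 0.05, 1 member was higher and 1 lower, against 1.35% and 2.87% of all genes, and for 0 members did the groups separate, against 1.06% upward and 1.26% downward. ISG20 was the lower one. It had 15.3, 12.4, 9.46 and 24.4 CPM in HPRT-targeted libraries, and of the deletion libraries given above replicate 1 alone reached that range. Its fold change on the log2 scale was -1.14 ± 0.44 (SE), and -0.65 without the libraries that stand apart.

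ZNFX1 was the higher one, with 105, 107, 136 and 52.3 CPM in LDAH deletion libraries, against 92.0, 32.6, 68.5 and 33.05 CPM in HPRT-targeted libraries. The groups overlapped through deletion replicate 4. Its log2 fold change was 0.82 ± 0.38 (SE), and 0.52 without the libraries that stand apart. OAS1 had 2.26, 5.13, 1.68 and 10.04 CPM in LDAH deletion libraries, against 3.02, 1.30, 0.642 and 0.413 CPM in HPRT-targeted libraries, a log2 fold change of 1.83 ± 0.89 (SE) that was 1.18 without deletion replicate 4 and 0.75 without the libraries that stand apart. IFITM2 had 638, 279, 566 and 494 CPM in HPRT-targeted libraries, and the log2 fold change of LDAH deletion over them was 0.42 ± 0.21 (SE), or 0.11 without the libraries that stand apart. All 4 genes had an adjusted p of 0.948 by edgeR QL with BH.

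Over both sets together, with the set as a covariate, HPRT-targeted cells had 17 of 41 members with a higher mean than the negative control, with a median log2 fold change of -0.03, against 46.8% of 11836 genes. Without the libraries that stand apart 25 of 42 were higher, with a median of 0.06, against 48.2% of 12116 genes, and 4 were higher and 0 lower at an unadjusted p under 0.05, against 2.77% and 3.82%. With all libraries no member passed edgeR QL with BH, with 0% of all genes called, and DESeq2 and limma voom called none. At an unadjusted p under 0.05, 3 members were higher and 0 lower, against 1.81% and 1.39% of all genes. ISG15 had the smallest p, 0.0113, and a log2 fold change of 0.59 ± 0.21 (SE), which was 0.48 without the libraries that stand apart. Its HPRT-targeted means were 14.2 ± 2.85 CPM for set A and 27.2 ± 10.8 CPM for set B (SD, n = 4 each), against 9.94 ± 2.002 CPM (SD, n = 4) and 17.4 ± 6.56 CPM (SD, n = 7) in the negative controls.

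USP18, which removes ISG15 from proteins, was at 0.31 ± 0.14 (SE), IFI27 at 0.26 ± 0.12 (SE) and IFI6 at 0.33 ± 0.17 (SE). USP18 averaged 44.0 ± 9.13 and 40.6 ± 10.8 CPM in HPRT-targeted cells of sets A and B, against 35.7 ± 6.02 and 32.9 ± 5.29 CPM in the negative controls. IFI27 averaged 311 ± 16.0 and 307 ± 102 CPM in HPRT-targeted cells, against 273 ± 17.8 and 247 ± 50.6 CPM. IFI6 differed in direction between the sets. It averaged 23.05 ± 3.86 CPM in HPRT-targeted cells of set A, against 25.5 ± 5.33 CPM in the negative control. In set B it averaged 17.1 ± 5.20 CPM, against 10.4 ± 1.57 CPM. Its log2 fold change in set A alone was -0.14 ± 0.25 (SE). The adjusted p of all 4 genes was 0.938 by edgeR QL with BH. USP18 was at 0.15, IFI27 at 0.21 and IFI6 at 0.25 without the libraries that stand apart. The HPRT effect was more positive in set A than in set B for 27 of 42 members, against 54.6% of 12055 genes. No member passed the test of that difference, with 0% of all genes called, and DESeq2 and limma voom called none. At an unadjusted p under 0.05, 0 members were higher and 1 lower, against 0.83% and 0.489% of all genes. That was IFI6, at -0.85 ± 0.39 (SE) in set A minus set B. IRF7 followed at -1.19 ± 0.77 (SE), and IFI44L rested on the counts given above. IFIH1 was at 0.92 ± 0.78 (SE), with 2.92 to 5.57 CPM in HPRT-targeted and 2.61 to 5.70 CPM in negative control libraries of set A. In set B the HPRT-targeted libraries had 3.52, 0.185, 3.53 and 0.826 CPM, against 2.09 to 6.43 CPM in the negative control, and the groups overlapped. Both of its low values came from libraries that stand apart. Without them IRF7 was at -0.18 and IFIH1 at 0.18, 23 of 42 members were more positive in set A, against 53.1% of 12366 genes, and 2 were higher and 0 lower at an unadjusted p under 0.05, against 1.53% and 1.08%. The adjusted p of each was 1.00 by edgeR QL with BH.

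The effects of the deletions were also set against each other, each relative to its own negative control. Of 42 members 16 had a more positive effect in SMAD3 deletion than in LDAH deletion and 26 a more negative one, with a median difference of -0.12 on the log2 scale, against 48.9% of 12055 genes more positive. By edgeR QL with BH no member was called, with 0% of all genes called. None reached an unadjusted p under 0.05, against 2.7% of all genes upward and 0.946% downward, and DESeq2 and limma voom called none. IRF9 had the smallest p, at a difference of 1.202 ± 0.643 (SE), followed by ISG20 at 0.91 ± 0.49 (SE), IFITM2 at -0.41 ± 0.23 (SE) and TRIM22 at 0.98 ± 0.56 (SE). Each had an adjusted p of 1.00 by edgeR QL with BH. Without LDAH deletion replicate 4 the difference was 2.12 for IRF9 and 1.76 for TRIM22. When the libraries that stand apart were left out, 19 members were more positive and 23 more negative, with a median of -0.07, against 55% of 12366 genes more positive. None was called then, against 0.55% of all genes, and 3 were higher and 2 lower at an unadjusted p under 0.05, against 6.7% and 2.6%. These were IRF9 at 1.65 ± 0.51 (SE), TRIM22 at 1.26 ± 0.42 (SE), BST2 at 0.68 ± 0.19 (SE), ZNFX1 at -0.46 ± 0.17 (SE) and IFITM2 at -0.32 ± 0.13 (SE).

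The median spread between libraries was larger for these genes than for all genes tested, though most members did not exceed the trend for their level. The median biological coefficient of variation of the members was 0.231 for set A and 0.454 for set B, against 0.182 and 0.358 for all genes tested. It lay above the trend for genes of the same level in 19 of 40 members in set A and 18 of 41 in set B, against 30.9% and 32.9% of all genes. In set A the members farthest above it were IFI44L, at 0.602, UBE2L6, at 0.428, and EIF2AK2, at 0.335. Pairs of members were weakly correlated within groups. After subtraction of group means, the median Pearson correlation over all pairs of members was 0.03 over 12 libraries of set A and 0.07 over 15 libraries of set B, against 0.00 and 0.00 for all pairs of genes. Pairs above 0.5 made up 16.0% and 17.4% of member pairs, against 15.7% and 13.7% of all pairs. All these pairs share libraries and depth.

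The groups overlapped in the mean level of the tested members per library, taken relative to its set. It averaged 0.06 ± 0.10 in SMAD3 deletion, -0.03 ± 0.14 in HPRT-targeted and -0.03 ± 0.09 in negative control libraries of set A, on the log2 scale (SD, n = 4 each). In set B it averaged 0.16 ± 0.16 in LDAH deletion and -0.17 ± 0.36 in HPRT-targeted (SD, n = 4 each) and 0.01 ± 0.20 in negative control libraries (SD, n = 7). The lowest and the highest library of set B, HPRT-targeted replicate 2 at -0.68 and LDAH deletion replicate 4 at 0.38, both stand apart.

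**Figure D4:**
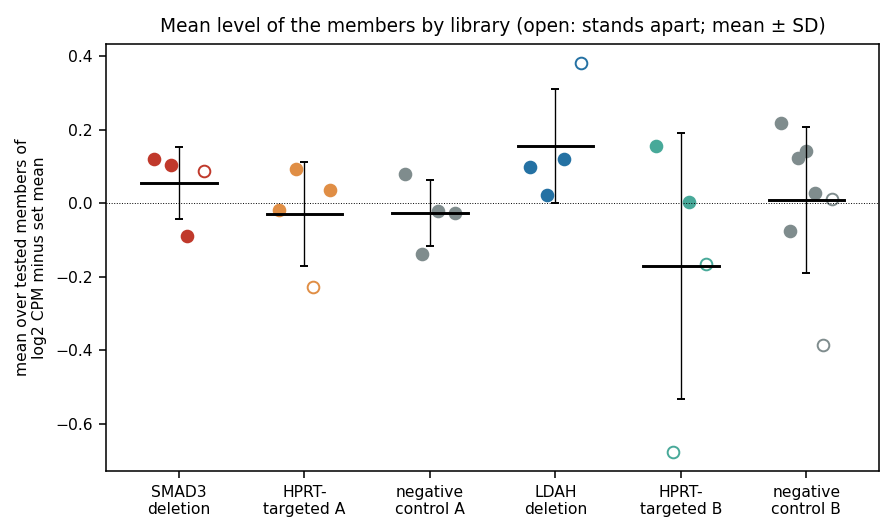
Mean over the tested members of log2 CPM minus its mean over the set, for each library of the 6 groups, with group mean and SD. Open symbols stand apart; in set B they span -0.68 to 0.38, against -0.08 to 0.22 for the other 10 libraries.

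In the libraries that stand apart the members split into those lower and those higher than in the rest of the set, in much the same way in both sets, which share no library. This is a description, since the libraries were chosen by expression over all genes, the members included. Of 39 members measured in both sets 13 were lower in both, 15 higher in both and 11 opposite. Over 11330 genes 41.3% were lower in both and 38.0% higher in both. The same sign was thus no more frequent among the members, at 71.8%, than among all genes, at 79.4%. The Spearman correlation between the sets was 0.823 over these members and 0.754 over all genes. XAF1 was lowest, at -1.76 in set A and -3.26 in set B on the log2 scale, with counts of 0 in 3 libraries that stand apart. EIF2AK2 was at -1.51 and -2.05, SAMD9 at -0.96 and -2.28 and SAMD9L at -0.85 and -2.69.

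The other members lower in both sets were OAS3, SP100, ZNFX1, PML, ADAR, PARP14, IFIT3, TRIM25 and IFITM3. EIF2AK2 had 31.8 and 50.8 CPM in the libraries of set A that stand apart, against 90.3 to 148 CPM in the others, and 24.5 to 46.2 CPM in those of set B, against 111 to 175 CPM. Among the higher ones UBE2L6 was at 0.53 in set A and 1.42 in set B, ISG15 at 0.79 and 1.08, TRIM22 at 0.75 and 1.01 and IRF9 at 0.57 and 1.01. In set B all 5 libraries that stand apart had more ISG15, at 24.9 to 66.8 CPM, than each of the other 10, at 9.32 to 23.1 CPM. The same held for UBE2L6, at 18.0 to 34.0 CPM against 3.38 to 16.7 CPM.

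The length of the longest coding transcript moved with this split, an observation made after seeing the data. Its median was 6700 bases for the 13 members lower in both sets and 1924 bases for the 15 higher in both. Over the 39 members its Spearman correlation with the difference came to -0.49 for set A and -0.58 for set B, against -0.35 and -0.43 over 10730 genes, all measured in the same libraries. EIF2AK2 has 10042 bases and SAMD9L 7134, ISG15 787 and UBE2L6 1573, while IFI44L, higher in both, has 5874 and IFITM3, lower in both, 808. In the same libraries the mean log2 level of the 13 endothelial markers lay at -0.37 to -0.26 in set A, against -0.01 to 0.15 in the others, and at -0.58 to -0.37 in set B, against 0.06 to 0.41. The part of ribosomal protein share, endothelial markers or transcript length in the members' values was not tested.

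**Figure D5:**
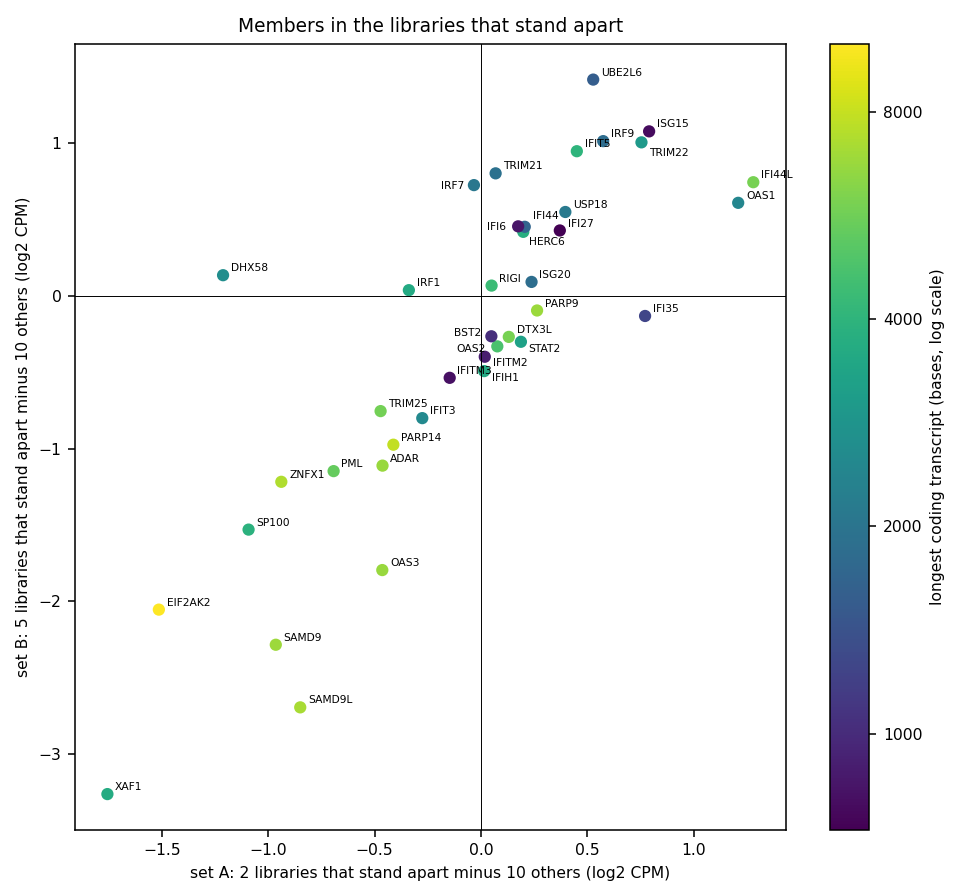
Difference in mean log2 CPM between the libraries that stand apart and the others, in set A (horizontal) and set B (vertical), for 39 members, coloured by transcript length on a log scale. Long-transcript genes such as SAMD9L and EIF2AK2 lie at the lower left, and short ones such as ISG15 and UBE2L6 at the upper right.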

How the data were processed

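The authors deposited integer counts per gene for the 27 QuantSeq 3' libraries of teloHAEC. Per the submitters' processing notes the build was hg38 and edgeR 3.24.3 was among the tools; no aligner or counting tool is given in the sources. Every count column belonged to a sample (0 left over). Symbols came from the current gene table for 13949 Ensembl IDs and from GENCODE 29 for 57, and 2 IDs stayed without one. Gene positions and transcript lengths are those of GENCODE 29 on GRCh38.

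The tests used edgeR 4.0.16 under R 4.3.3, with TMM normalisation, filterByExpr, a quasi-likelihood fit, a two-sided F-test and Benjamini-Hochberg correction across every gene in the fit, at 0.05. One fit took set A with 12 libraries (11467 genes), one set B with 15 (11769 genes), one every HPRT-targeted and negative control library, with set as a covariate (11836 genes), and one all 27 for differences between effects (12055 genes). They kept 40, 41, 41 and 42 members. HERC5, OASL, IFITM1 and RSAD2 passed in no fit, IFIT1 not in set B, MX1 not in set A and IFIT2 neither in set A nor in the fit of HPRT-targeted and control libraries. The SE is the size of the log2 fold change divided by the square root of F. CPM were scaled by TMM over all 27 libraries, whose totals were 3.43 to 7.75 M counts. Limits from 3 counts cover counting error only, as reads carry no molecular identifiers. No pair of libraries of a group looked like 1 library deposited again (chi-square per degree of freedom 3.03 to 78.9 over 51 pairs). On simulated counts with 200 genes changed 2-fold, the test recovered 70.5% with 5 false calls for SMAD3 deletion against negative control (11348 genes). It recovered 9% with 1 false call for LDAH deletion against negative control (11519 genes). The changed genes were drawn only from genes above a minimum mean count. DHX58, IFIT1, IFI44L and HERC6 lay below it in set A, so this recovery does not cover members as low as those.

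The members, gene lists, comparisons and alternatives were chosen with earlier results of these data known. In each comparison the 4 members of smallest p, and any called, are named with their values; of the other lists, up to 3 genes per list and comparison with the smallest p. PML, IFI27, DHX58, LAP3, NMI, PARP12, the members named from fits without the libraries that stand apart, such as BST2 and IRF9, the comparison of the controls of the sets, and transcript lengths were picked after seeing values. As alternatives, results were recomputed with DESeq2 1.42.0, limma 3.58.1 voom with sample quality weights, other normalisations, filters and sets of libraries in the fit, CPM without TMM, and leaving out each library or the 7 that stand apart.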

Additional observations from a re-analysis of the deposited data

Results flagged for a closer look

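Among 17 named members and the mean of the list, 108 groups of 4 to 7 libraries were searched for a library far from the others of its group. There were 11 such values, 7 of them in libraries that stand apart. The rule flags about 1 in 20 for independent, normally distributed values. CPM with counts of 0, in groups that share the same libraries, do not meet this, so the number of flags cannot be read as an excess. In LDAH deletion replicate 4, ISG15 was at 66.8 CPM, against 16.9 to 22.4 CPM in the other deletion libraries, and in LDAH deletion replicate 3, HERC6 was at 0.838 CPM, against 2.95 to 3.37 CPM. In SMAD3 deletion replicate 4, IFI44L was at 9.40 CPM, against 0.551 to 1.90 CPM, and TRIM22 at 20.3 CPM, against 8.96 to 10.6 CPM. The mean log2 level of the members in SMAD3 deletion replicate 3 was -0.089, against 0.089 to 0.12 in the other deletion libraries.

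In HPRT-targeted cells, IFI44L was at 1.11 CPM in replicate 2 of set B, against 0 CPM in the other 3 libraries, and TRIM22 at 6.31 CPM in replicate 1 of set A, against 10.7 to 10.97 CPM. Among negative controls, USP18 was at 44.7 CPM in replicate 1 of set A, against 32.1 to 33.4 CPM. In set B, IFI27 was at 350.2 CPM and OAS1 at 6.71 CPM in control replicate 7, against 198 to 257 CPM and 0.475 to 3.06 CPM, and IFITM2 was at 357 CPM in control replicate 6, against 506 to 558 CPM.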

How the results depend on the processing

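Over 9 comparisons, counts of called members, list medians and named members were recomputed under every alternative. Of the values compared, 1064 kept their sign and side of the test's threshold, or moved by less than the spread between libraries. As no member was called with all libraries, a fold change could shrink greatly and still be counted there. That of IFI44L in SMAD3 deletion against negative control went from 1.54 to 0.28 without the 7 libraries that stand apart. The median of the members took the other sign in 14 recomputations over 5 comparisons, by less than the spread between libraries. In HPRT-targeted cells of set B it was -0.07 with all libraries and 0.06 without the 7 that stand apart. The value that moved was the count of called members for LDAH deletion against negative control, which was 1 (ZNFX1) without the 7 libraries that stand apart. Leaving out single libraries gave counts of 0 to 0 in all comparisons. Requiring a mean of at least 10 CPM left out the lower members, which then gave no value. CPM without TMM factors were 0.920 to 1.05 times those with them. No paired analysis was possible because the labels number replicates in no shared way between groups and pair no libraries. Depth limits the lowest members: a count of 0 allows up to 0.387 to 0.875 CPM, above the means of IFITM1 and RSAD2. In set B the simulated 2-fold changes were mostly missed, so that the absence of calls there sets no bound on changes of that size. For set A the simulated recovery does not cover the tested members of lowest count.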
